A study of Homo sapiens with 6 samples.

Results

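Transcript levels of 10 Krüppel-like factor (KLF) genes were examined in TFK-1, an established cell line from a human extrahepatic cholangiocarcinoma (ECCA). The members were KLF2, KLF3, KLF4, KLF5, KLF6, KLF7, KLF9, KLF10, KLF11 and KLF13, taken by name with earlier results of these data known. They are 10 of the 18336 genes measured by a probe of a single gene. A group of 3 samples of TFK-1 cells overexpressing HOXA5, a homeobox transcription factor, was set against 3 normal control samples of the same line. All cells were grown in RPMI-1640 with fetal bovine serum, transduced with lentivirus and kept as stable lines under puromycin. Per the study's methods the overexpression lentivirus carried Flag-tagged HOXA5, and a matching negative control virus was made. The labels give neither the number of stable lines per group nor separate cultures for the 3 samples, so every p-value here refers to the variation among these 3 samples, which can be purely technical. RNA of each sample was labelled with Cy5 and hybridized to 1 Human OneArray slide of 31741 probes.

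KLF proteins bind GC-rich and CACCC sequences in promoters through a run of zinc fingers at the C terminus, which the family shares with the SP proteins. The N terminus differs between members and sets whether a member activates or represses. KLF2, KLF4, KLF5, KLF6 and KLF7 are mostly described as activators, KLF3 recruits the corepressor CtBP, and KLF9, KLF10, KLF11 and KLF13 recruit SIN3 corepressors with histone deacetylases. In epithelia the family is best known for KLF4 and KLF5, which mark differentiating and dividing cells of the gut.

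Median raw intensity lay between 95 and 177 on the HOXA5 arrays and between 126 and 180 on the control arrays, and HOXA5 replicate 3 was the dimmest array. A probe is called bright on an array where the deposited flag was 0, and dim otherwise. The lowest raw intensity with flag 0 was between 58 and 67 on the 6 arrays. Of the probes, 17150 to 21154 were bright per array. HOXA5 itself was checked first, and its probe with the highest mean rose by 1.94 ± 0.12 (limma, adjusted p = 0.000766), with raw intensities of 585, 502 and 312 in HOXA5 cells, against 110, 118 and 49 in controls. A second HOXA5 probe, bright on all 6 arrays, fell by 0.34 ± 0.07 (limma, adjusted p = 0.0253). In controls its normalized log2 mean was 7.89, against 7.07 for the first probe, which was chosen by its mean over all 6 arrays. The check of the labels therefore depends on the probe, and the position of either probe in the transcript was not analysed here. Of 6 measured biliary epithelial markers, 5 were bright on all 6 arrays, while the leukocyte markers PTPRC and CD3E, the hepatocyte marker ALB and the fibroblast collagen COL3A1 were dim on all 6. CDH1, SOX9 and KRT19 rose and 0 of the 6 fell, though KRT19 did not pass with median scaling (limma, adjusted p = 0.139) or the authors' normalized table (0.114), nor SOX9 with that table (0.0539). KRT7 (-0.19 ± 0.16, limma, adjusted p = 0.479), KRT8 (-0.13 ± 0.17, 0.675) and EPCAM (0.14 ± 0.19, 0.678), named after their values were seen, did not pass. The summed normalized intensity of the 6 markers was 77526 to 82480 in HOXA5 cells, against 57158 to 61346 in controls. KRT19 had the highest mean of the 6 and so the largest part in this sum, with raw intensities of 38904 to 57481 in HOXA5 cells and 35520 to 42559 in controls. For 9 markers of other cell types the sums were 1724 to 2457 in HOXA5 cells and 1711 to 2001 in controls, and 0 rose (also 0 at an unadjusted p under 0.05), HBB fell and COL1A1, CD14 and VWF were bright on every array. In such bulk RNA, a change in the share of cells of one kind and a change in RNA per cell cannot be told apart.

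Most KLF members were higher in HOXA5 cells. KLF2, KLF3, KLF6, KLF7, KLF9 and KLF13 rose, 0 members fell (also 0 at an unadjusted p under 0.05 and 0 by the methods' t-test), and KLF4, KLF5, KLF10 and KLF11 did not pass the test (limma over all probes, adjusted p under 0.05). Among all genes, 13.1% rose and 11% fell by the same call. A rise of at least 2-fold was called for KLF2, KLF3, KLF6 and KLF9, against 3.83% of all genes that rose and 2.39% that fell by that much. The median log2 fold change of HOXA5 over control was 0.96 over the 10 members and -0.01 over all genes. HOXA5 and control samples did not overlap for 7 members, all of them higher in HOXA5 cells, whereas 21% of all genes were higher and 20.4% were lower without overlap. All 10 members were bright on all 6 arrays by the probe used, which is the one with the highest mean for each gene. Of all 18336 genes, 11280 were bright on all 6 arrays and 4122 were dim on all 6. The shares over all genes include the dim ones, and no share over bright genes alone was computed. By class, 3 of the 5 activators rose with a median log2 fold change of 1.00, the CtBP-binding KLF3 rose, and 2 of the 4 SIN3-binding members rose with a median of 0.33. The classes were not compared by a test.

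**Figure D1:**
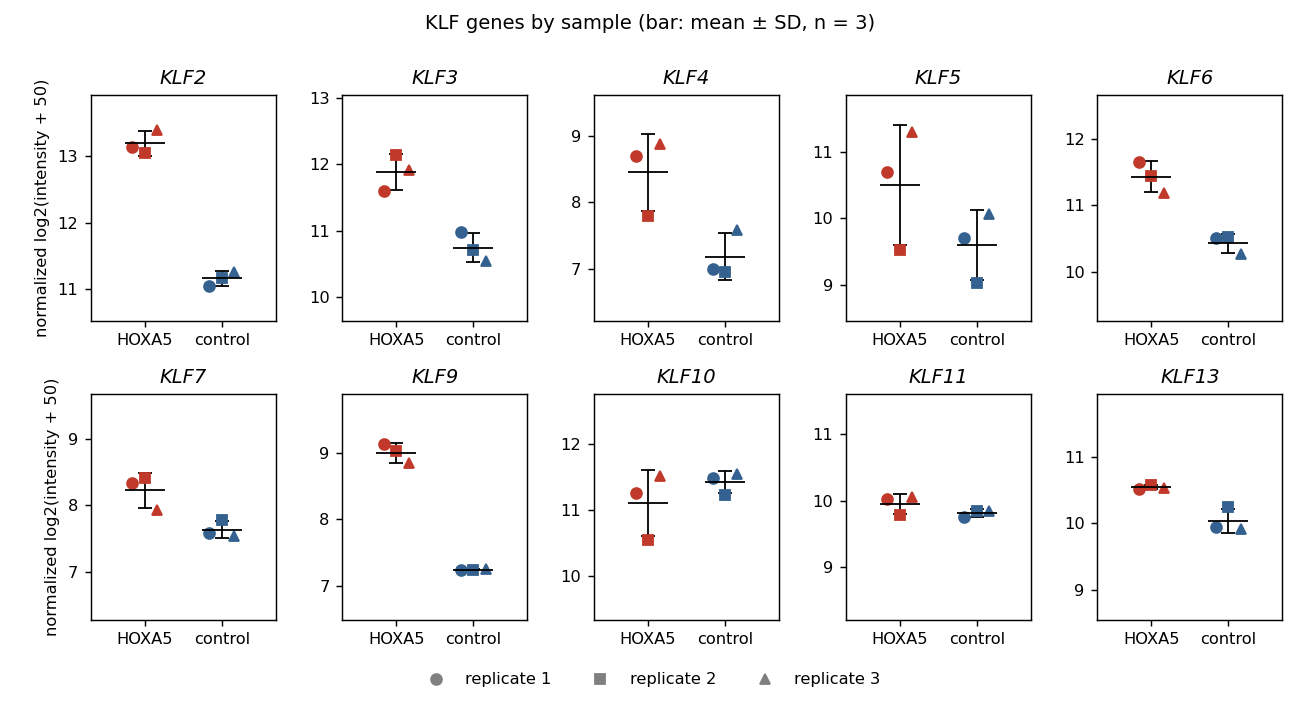
Normalized log2(intensity + 50) of each KLF gene in the HOXA5 samples (left in each panel, red) and the control samples (right, blue), with 1 point per sample, the marker shape giving the replicate number and the bars the mean ± SD (n = 3 each). The panels differ in their level but span the same log2 range. KLF2 and KLF9 are separated by gaps of 1.79 and 1.60 log2 units, whereas the KLF5, KLF10 and KLF11 samples overlap.

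Promoter sequences are shown for members at both ends of the response and for the only member window with a homeobox motif. They are the 250 bases before a RefSeq transcription start in GRCh38.p14, written 5′ to 3′ on the gene's strand, and capitals mark the motifs searched on both strands. The motifs were the homeobox core TAATTA, a MEF2 core TATTTATA, the cAMP response element (CRE) TGACGTCA, the AP-1 site TGACTCA, the E-box CACGTG, the GC box GGGCGG and the KLF box CACCC. The MEF2 consensus, known by that name, was added after the sequences were seen. The table held 13 windows of 8 members, and KLF3 and KLF10 had none.
KLF2 (chr19:16324576-16324825, + strand): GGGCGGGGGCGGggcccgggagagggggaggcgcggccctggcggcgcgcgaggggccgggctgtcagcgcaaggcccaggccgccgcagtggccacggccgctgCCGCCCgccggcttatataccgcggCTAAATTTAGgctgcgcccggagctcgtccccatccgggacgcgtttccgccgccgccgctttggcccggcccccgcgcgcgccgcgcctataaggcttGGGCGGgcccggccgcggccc
KLF9 (chr9:70414658-70414907, - strand): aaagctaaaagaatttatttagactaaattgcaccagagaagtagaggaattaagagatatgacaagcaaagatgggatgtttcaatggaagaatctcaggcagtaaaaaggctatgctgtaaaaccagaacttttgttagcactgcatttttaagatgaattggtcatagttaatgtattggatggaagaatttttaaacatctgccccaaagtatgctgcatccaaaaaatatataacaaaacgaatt
KLF4 (chr9:107489770-107490019, - strand): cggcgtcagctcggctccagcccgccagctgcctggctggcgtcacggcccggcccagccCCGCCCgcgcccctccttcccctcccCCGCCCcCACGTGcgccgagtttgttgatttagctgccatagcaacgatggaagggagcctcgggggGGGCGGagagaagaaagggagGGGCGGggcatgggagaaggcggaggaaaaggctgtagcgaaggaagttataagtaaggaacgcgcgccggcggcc
KLF11 (chr2:10043971-10044220, + strand, the window with a CRE of its 2 windows): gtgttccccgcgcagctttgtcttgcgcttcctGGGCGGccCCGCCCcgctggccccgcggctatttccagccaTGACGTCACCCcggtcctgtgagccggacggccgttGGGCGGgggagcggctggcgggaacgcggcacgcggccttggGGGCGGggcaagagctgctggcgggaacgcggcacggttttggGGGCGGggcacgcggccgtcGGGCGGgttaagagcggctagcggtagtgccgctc
KLF7 (chr2:207134209-207134268, - strand, 60 bases around the homeobox core in 1 of its 4 windows): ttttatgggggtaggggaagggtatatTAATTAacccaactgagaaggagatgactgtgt

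The 2 members with the largest rises had windows of unlike composition. GC content was 80.0% in the KLF2 window and 32.4% in the KLF9 window, against a median of 58.0% over 35116 windows of all genes. The KLF2 window held 4 GC boxes and a MEF2 consensus that ended 111 bases before the start. Of all windows, 42.6% held a GC box and 2.8% a MEF2 consensus. The KLF9 window held none of the motifs. The KLF4 window held 4 GC boxes and an E-box, a motif present in 6.34% of all windows. In the KLF11 window the CRE ended 169 bases before the start and overlapped a KLF box, next to 6 GC boxes, and a CRE was found in 1.65% of all windows. The homeobox core, the kind of motif that HOX proteins bind, was found in 1 of the 13 member windows (KLF7) and in 4.35% of all windows. AP-1 sites and the MEF2 core were in 0 of the 13 windows and in 4.2% and 1.35% of all windows. Of the 13 windows, 8 held a GC box, 4 an E-box and 6 a KLF box, a motif found in 54.7% of all windows. By member, 7 of the 8 had a GC box in at least 1 window and 4 had an E-box, KLF11 in its other window. Some members had several windows, and no share by gene was computed over all genes. A match is a description of these letters only, and binding was not measured on these arrays.

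KLF2, which keeps endothelial cells and T cells quiescent and is induced by fluid flow in endothelium, showed the largest rise of the 10 members. Its raw intensity was 9530, 8558 and 7556 in HOXA5 replicates 1, 2 and 3, against 2337, 2618 and 2181 in control replicates 1, 2 and 3. The 3 HOXA5 samples all lay far above the 3 controls, and the lowest HOXA5 value exceeded the highest control value by 1.79 log2 units after normalization. Normalized log2 intensity averaged 13.19 ± 0.18 in HOXA5 cells and 11.16 ± 0.11 in controls (SD, n = 3 each). The log2 fold change was 2.03 ± 0.11 (SE, limma, adjusted p = 0.000669), or 4.10-fold on the scale of intensity plus 50. Among all genes, 67 had a larger rise. KLF2 passed the test under all 17 alternative settings, with log2 fold changes of 1.88 to 2.12 and adjusted p up to 0.0078. Its GC-rich window with the MEF2 consensus is the first sequence printed.

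KLF9, a glucocorticoid- and thyroid hormone-responsive member of the SIN3-binding class, had the second largest rise. Raw intensity was 605, 525 and 280 in HOXA5 replicates 1, 2 and 3, against 124, 114 and 87 in control replicates 1, 2 and 3. The lower value of HOXA5 replicate 3 came with the dimmest array, and after normalization the HOXA5 values were 9.14, 9.04 and 8.84 and the controls 7.23, 7.23 and 7.25. The controls were nearly equal and the groups were separated by 1.60 log2 units. KLF9 rose by 1.77 ± 0.09 (limma, adjusted p = 0.000513), or 3.41-fold, with 132 genes showing a larger rise. It passed under all 17 alternatives, at log2 fold changes of 1.49 to 2.05 and adjusted p up to 0.0118. Its window was the AT-rich one without any of the motifs.

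KLF3, a repressor that recruits CtBP and restrains fat cell differentiation in mice, had raw intensities of 3453, 4486 and 2746 in HOXA5 replicates 1, 2 and 3, against 2235, 1862 and 1267 in control replicates 1, 2 and 3. Every HOXA5 sample was above every control, with HOXA5 replicate 1 (11.60 after normalization) nearest to the highest control (10.99, replicate 1). The rise was 1.14 ± 0.18 (limma, adjusted p = 0.00957). It passed under all 17 alternatives, with log2 fold changes of 0.72 to 1.29 and adjusted p up to 0.0422. A second KLF3 probe was dim on all 6 arrays, with raw intensities of 28 to 44 in HOXA5 cells and 17 to 33 in controls, and at 0.30 ± 0.10 it did not pass (limma, adjusted p = 0.105).

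KLF6, reported as a tumour suppressor and as an activator of CDKN1A, was measured by 4 probes. The probe with the highest mean gave raw intensities of 3563, 2834 and 1651 in HOXA5 replicates 1, 2 and 3, against 1609, 1629 and 1035 in control replicates 1, 2 and 3. After normalization the HOXA5 samples were at 11.66, 11.45 and 11.19 and the controls at 10.50, 10.52 and 10.26, without overlap. It rose by 1.00 ± 0.14 (limma, adjusted p = 0.00718) and passed under 16 of 17 alternatives, the exception being the authors' normalized table (0.91, adjusted p = 0.0886). Being close to the 2-fold threshold, it was called at 2-fold under 11 of the 17. A second probe rose by 1.26 ± 0.10 (adjusted p = 0.0013) and another by 0.56 ± 0.07 (adjusted p = 0.0045). The remaining probe, at 251, 272 and 111 in HOXA5 cells and 204, 208 and 126 in controls, did not pass (0.23 ± 0.11, adjusted p = 0.241).

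KLF7, a broadly expressed member needed for nerve growth in mice, also had probes that differed. The probe used gave raw intensities of 321, 331 and 125 in HOXA5 replicates 1, 2 and 3, against 170, 188 and 113 in control replicates 1, 2 and 3. The normalized groups did not overlap but came within 0.15 log2 units, between HOXA5 replicate 3 (7.93) and control replicate 2 (7.77). This probe rose by 0.59 ± 0.15 (limma, adjusted p = 0.0430) and lost the call in 8 of 17 alternatives. Among these were the fits without HOXA5 replicate 1 or 2 (adjusted p = 0.121 and 0.0717) and without control replicate 1, 2 or 3 (adjusted p = 0.141, 0.0795 and 0.130). A second probe, at 376, 306 and 192 in HOXA5 cells and 132, 121 and 95 in controls, rose by 1.11 ± 0.07 (adjusted p = 0.0008) and passed under all 16 alternatives run on it. The remaining probe was bright on 1 HOXA5 array and 2 control arrays, and at -0.22 ± 0.12 it did not pass (adjusted p = 0.288).

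KLF13, which activates the chemokine gene CCL5 in T cells and also recruits SIN3, was higher by a smaller amount. Raw intensity was 1627, 1547 and 1028 in HOXA5 replicates 1, 2 and 3, against 1077, 1336 and 792 in control replicates 1, 2 and 3. After normalization the HOXA5 samples agreed closely (10.52, 10.58 and 10.54), the controls were at 9.94, 10.25 and 9.91, and the groups did not overlap. The rise was 0.51 ± 0.10 (limma, adjusted p = 0.0218). The call was lost in 7 of 17 alternatives, including the fits without HOXA5 replicate 1 or 3 (adjusted p = 0.0607 and 0.0637) and without control replicate 1 or 3 (adjusted p = 0.0849 and 0.0717). A second probe, at 888, 867 and 475 in HOXA5 cells and 508, 515 and 320 in controls, rose by 0.75 ± 0.10 (adjusted p = 0.0059) and passed in 15 of 16 alternatives.

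**Figure D2:**
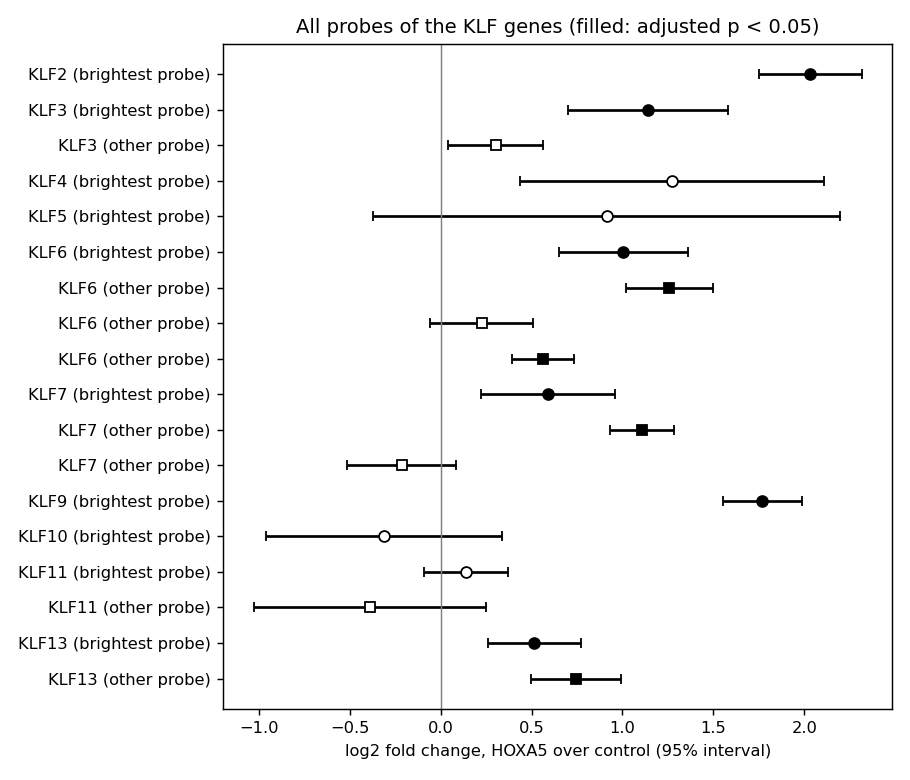
Log2 fold change of HOXA5 over control for all 18 probes of the KLF genes, with circles for the probe with the highest mean of each gene, squares for its other probes, bars for 95% intervals and filled markers for an adjusted p under 0.05 (limma). Of the 18 probes, 10 rose and 0 fell, and the median change was 0.67. Over all 31741 probes, 6512 passed in either direction by the same test. Some genes have several of the 18 probes, so the probes are not separate genes.

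KLF4, a reprogramming factor that promotes epithelial differentiation and growth arrest, fell just short of the threshold. Raw intensity was 431, 199 and 289 in HOXA5 replicates 1, 2 and 3, against 98, 87 and 119 in control replicates 1, 2 and 3. The groups did not overlap, but HOXA5 replicate 2 (7.79 after normalization) stood well below the other HOXA5 samples (8.70 and 8.88) and 0.20 log2 units above the highest control. The log2 fold change of 1.27 ± 0.34 did not pass (95% interval 0.44 to 2.11, limma, adjusted p = 0.0501). KLF4 passed in 9 of 17 alternatives, over which the adjusted p ran between 0.00953 and 0.164. Without HOXA5 replicate 2 the change was 1.61 (adjusted p = 0.0097), and with median scaling the adjusted p was 0.0167.

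KLF5, which drives division of intestinal epithelial cells, varied widely between the samples of each group. Raw intensity was 1845, 742 and 1784 in HOXA5 replicates 1, 2 and 3, against 901, 523 and 892 in control replicates 1, 2 and 3. Replicate 2 was the lowest sample of either group, and HOXA5 replicate 2 (9.52 after normalization) lay inside the range of the controls (9.02 to 10.06). The change of 0.91 ± 0.52 did not pass (95% interval -0.37 to 2.20, limma, adjusted p = 0.292). It passed only without HOXA5 replicate 2 (1.42, adjusted p = 0.0488) and with the replicate numbers as a block (adjusted p = 0.0303), out of 17 alternatives with adjusted p up to 0.566.

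KLF10 and KLF11, both induced early by TGF-beta and able to repress through SIN3, had the lowest log2 fold changes of the 10 members. KLF10 had raw intensities of 2698, 1525 and 2076 in HOXA5 replicates 1, 2 and 3, against 3183, 2714 and 2678 in control replicates 1, 2 and 3. Its normalized groups overlapped, with HOXA5 replicate 2 lowest, and at -0.31 ± 0.26 (95% interval -0.96 to 0.34, limma, adjusted p = 0.485) it was the only member with a negative value and passed under 0 of 17 alternatives. KLF11 had raw intensities of 1149, 890 and 724 in HOXA5 cells, against 931, 983 and 757 in controls, and its samples were interleaved. Its change was 0.14 ± 0.09 (95% interval -0.09 to 0.37, adjusted p = 0.367), an interval whose upper end is below a 2-fold rise. A second KLF11 probe, at 200, 347 and 89 in HOXA5 cells and 356, 338 and 185 in controls, gave -0.39 ± 0.26 (adjusted p = 0.367). The mean of both probes was -0.13, so the sign for KLF11 depends on the probe.

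HOXA5 replicate 2 was lower than the mean of the other HOXA5 samples in KLF4, KLF5, KLF10 and KLF11, none of which passed, and in KLF2, which did. The difference was -1.49 for KLF5, -0.996 for KLF4 and -0.83 for KLF10 on the log2 scale, but -0.26 for KLF11, -0.22 for KLF2 and 0.38 for KLF3. Without this sample KLF4 and KLF5 passed, whereas KLF10 (-0.03, limma, adjusted p = 0.887) and KLF11 (0.23, adjusted p = 0.0590) did not. Control replicate 2 against the other controls was at -0.86 for KLF5, -0.34 for KLF4 and -0.29 for KLF10. The part of these sample differences in the results was not tested beyond the fits without each sample, under which 4 to 7 members rose and 0 fell.

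**Figure D3:**
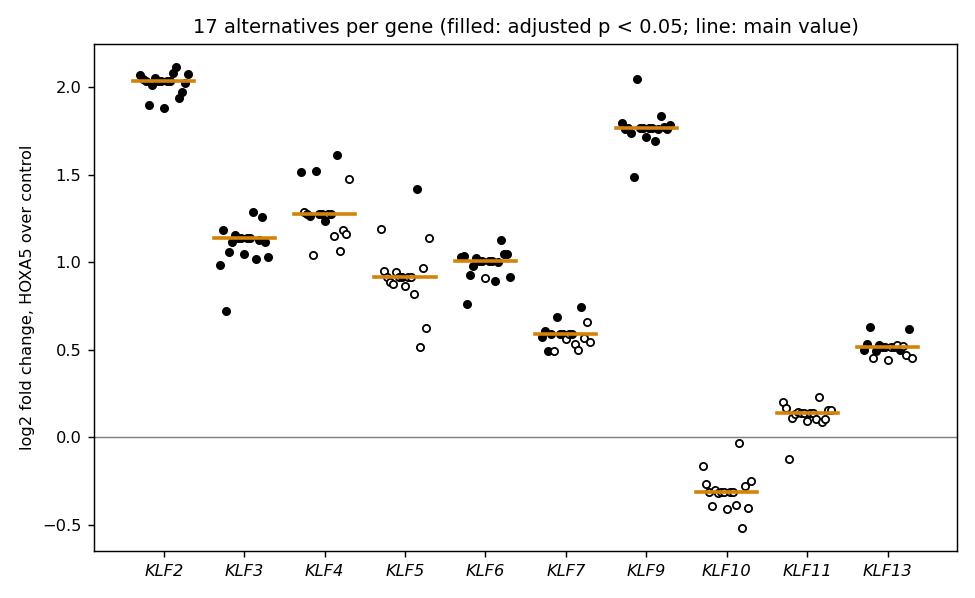
Log2 fold change of HOXA5 over control for each KLF gene under 17 alternative settings, with 1 point per setting, filled points for an adjusted p under 0.05 and an orange line for the reported value. KLF2, KLF3 and KLF9 are filled throughout, KLF4 is filled in 9 of 17 and KLF10 is open throughout.

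Of 7 other KLF genes measured, 3 rose and 0 fell (0 at an unadjusted p under 0.05), with a median log2 fold change of 0.15. At the adjusted p, 13.1% of all genes rose and 11% fell. KLF12, a CtBP-binding repressor, rose by 0.62 ± 0.11 (limma, adjusted p = 0.0131), with raw intensities of 284, 243 and 191 in HOXA5 cells, against 168, 157 and 121 in controls. Its groups did not overlap, but the call was lost without control replicate 1 or 2 (adjusted p = 0.0592 and 0.0527). KLF15, a glucocorticoid-induced regulator of metabolism, was dim on all controls and bright on 1 HOXA5 array. Its normalized means were 6.89 in HOXA5 cells and 6.18 in controls (adjusted p = 0.0258). With the dim control arrays held at their lowest bright level, the HOXA5 mean was 1.08-fold higher. The dim HOXA5 arrays kept their own values, so this is not a strict lower bound. The KLF15 call was lost without HOXA5 replicate 1 (adjusted p = 0.0730) and without control replicate 1, 2 or 3 (adjusted p = 0.0988, 0.0805 and 0.0782). By the methods' t-test it was lost too. KLF14 also passed but was dim on all 6 arrays. A second KLF12 probe, dim on all 6 arrays, did not pass (0.30 ± 0.08, adjusted p = 0.0558). Without control replicate 1 or 2, 0 of the 7 rose, and 1 rose without HOXA5 replicate 1 or control replicate 3 and with dim probes filtered out. With dim probes filtered out the median was -0.24. KLF8 (-0.24 ± 0.14, adjusted p = 0.324) and KLF16 (-0.25 ± 0.12, adjusted p = 0.216), bright on all 6 arrays and named after their values were seen, did not pass.

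None of the 9 SP genes, the nearest relatives of the KLF family, passed in either direction (limma), 0 passed by the methods' t-test or at an unadjusted p under 0.05, and their median was -0.01. The lowest p-values belonged to SP6 at -0.25 ± 0.12 (95% interval -0.55 to 0.05, adjusted p = 0.223) and SP5 at -0.64 ± 0.32 (95% interval -1.43 to 0.15, adjusted p = 0.229). SP1, the founding member, named here after its values were seen, was at 5928, 8755 and 3252 in HOXA5 cells and 5630, 6686 and 3510 in controls, and its interval of -0.38 to 1.01 does not exclude a 2-fold rise. Among 16 alternatives, SP4 passed without HOXA5 replicate 2 and with array weights, and SP5 with the replicate numbers as a block.

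The corepressors and coactivators that KLF proteins use gave 3 that rose and 1 that fell of 10, with a median of 0.14. By the same call 13.1% of all genes rose and 11% fell. HDAC2, a histone deacetylase of the SIN3 complex, fell. Its raw intensity was 2804, 2396 and 1824 in HOXA5 cells, against 5300, 4567 and 3701 in controls, without overlap, and its log2 fold change was -0.77 ± 0.09 (limma, adjusted p = 0.0037). A second HDAC2 probe gave -0.76 ± 0.06 (adjusted p = 0.0015), and HDAC2 passed under all 16 alternatives. SIN3B, a scaffold of that complex, rose by 0.85 ± 0.15 (adjusted p = 0.0145), but not without control replicate 1 or 3 (adjusted p = 0.0630 and 0.0525), and its other, dim probe was at 0.00. The acetyltransferase KAT2B rose by 0.64 ± 0.15 (adjusted p = 0.0372), and its call held among the fits without a sample only where HOXA5 replicate 2 was left out (adjusted p = 0.106 and 0.102 without HOXA5 replicate 1 or 3, and 0.132, 0.116 and 0.0632 without control replicate 1, 2 or 3). Cyclic loess and the authors' normalized table also ended the KAT2B call, and the methods' t-test ended those of SIN3B and KAT2B. CTBP2, the partner of KLF3, rose by 0.54 ± 0.11 (adjusted p = 0.0220). A second CTBP2 probe, bright on all 6 arrays, did not pass (0.34 ± 0.16, adjusted p = 0.214), and a further, dim one was at 0.05. The CTBP2 call was lost with median scaling (adjusted p = 0.0709), the authors' normalized table (0.168) and the methods' t-test (0.0626), without HOXA5 replicate 3 (adjusted p = 0.0665) and without control replicate 1, 2 or 3 (0.0804, 0.0812 and 0.0686). CTBP1, SIN3A, HDAC1, HDAC3, EP300 and CREBBP did not pass by the probes used. For SIN3A, the other scaffold of the SIN3 complex and named after its values were seen, that probe gave -0.24 ± 0.15 (adjusted p = 0.334), but a second one, bright on all 6 arrays and without overlap, fell by 0.59 ± 0.08 (adjusted p = 0.0051). The count of the list that rose was 0 without control replicate 1 or 3, 1 without HOXA5 replicate 3 or control replicate 2, and 2 without HOXA5 replicate 1. It was 0 by the methods' t-test, 1 with the authors' normalized table and 2 with median scaling or cyclic loess, and HDAC2 was the 1 that fell in each.

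Of 7 measured genes on the kinase route from MEK5 through ERK5 to the MEF2 factors, which induces KLF2 and KLF4 in endothelium, 0 rose (3 at an unadjusted p under 0.05, 0 by the methods' t-test) and 1 fell, with a median of 0.19. The shares over all genes were 13.1% risen and 11% fallen at the adjusted p, and were not computed at the unadjusted p. MAPK7, which encodes ERK5, had raw intensities of 112, 149 and 61 in HOXA5 cells, against 187, 181 and 124 in controls. It fell by 0.37 ± 0.09 (limma, adjusted p = 0.0426) and passed in 6 of 16 alternatives. Leaving out HOXA5 replicate 1 or 3 (adjusted p = 0.0688 and 0.104) or control replicate 1, 2 or 3 (adjusted p = 0.135, 0.133 and 0.0928) ended the call. MEF2A, named here after its values were seen, did not pass by the probe used (1.01 ± 0.29, adjusted p = 0.0645) but did by another (1.02 ± 0.17, adjusted p = 0.0132). The MEF2A probe used passed in 6 of 16 alternatives. The count of the list that rose was 1 with median scaling, dim probes filtered out or trended and robust variances. It was also 1 with the replicate numbers as a block or without HOXA5 replicate 2, and 2 with array weights.

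Among 10 measured genes of KLF protein turnover, 1 rose and 0 fell (5 higher and 0 lower at an unadjusted p under 0.05), with a median of 0.26. At the adjusted p, 13.1% of all genes rose and 11% fell. No share of all genes was computed at the unadjusted p. FBXO32, an F-box protein known from muscle wasting, was dim on all controls and bright on 2 HOXA5 arrays. Its normalized means were 6.83 in HOXA5 cells and 6.10 in controls (limma, adjusted p = 0.0024). With the control arrays held as for KLF15 its HOXA5 mean was 1.03-fold higher, again not a strict lower bound. The FBXO32 call was lost with the authors' normalized table (adjusted p = 0.0963). Among other probes, named after their values were seen, that of the F-box gene FBXO22 fell by 0.55 ± 0.11 (adjusted p = 0.0223) while the probe used did not pass (-0.34 ± 0.27, adjusted p = 0.459), and 1 of FBXW7 rose by 0.32 ± 0.08 (adjusted p = 0.0420) while the probe used did not pass (0.25 ± 0.09, adjusted p = 0.130). WWP1, the ligase that marks KLF5 for degradation, also named after its values were seen, did not pass (0.26 ± 0.49, adjusted p = 0.774). Without HOXA5 replicate 2 or control replicate 2, 2 of the 10 rose, as with an offset of 100 or array weights, and the count was 3 with cyclic loess and 0 with the authors' table or with dim probes filtered out.

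Of 24 measured genes reported elsewhere as KLF targets, 6 rose, 3 fell and 15 did not pass, with a median of 0.27. By that call 13.1% of all genes rose and 11% fell. KRT19, named above as a biliary marker, was also 1 of the 6 that rose. EGR1, an immediate early transcription factor, showed the largest change of the list. Its raw intensity was 39133, 26969 and 24035 in HOXA5 cells, against 3837, 3870 and 3608 in controls, and it rose by 3.13 ± 0.14 (limma, adjusted p = 0.000430). BIRC5, the inhibitor of apoptosis survivin, was at 3734, 4752 and 2536 in HOXA5 cells, against 14602, 14456 and 9471 in controls, a change of -1.57 ± 0.16 (adjusted p = 0.0029), and its other probes gave -1.52 and -1.66. The lectin gene LGALS3 rose by 1.12 ± 0.11 (adjusted p = 0.0023). EGR1, BIRC5 and LGALS3 passed under all 16 alternatives and their groups did not overlap. The fat cell regulator PPARG rose by 0.60 ± 0.15 (adjusted p = 0.0456), a call lost without HOXA5 replicate 1 or 3 (adjusted p = 0.0532 and 0.0786) and without control replicate 1, 2 or 3 (adjusted p = 0.113, 0.118 and 0.136). That call was also lost with the authors' normalized table, an offset of 100 and the methods' t-test. The count that rose was 3 without control replicate 1 or 3 and 4 to 8 in the fits without another sample, and the count that fell was 1 without HOXA5 replicate 1 or any of the controls and 2 without HOXA5 replicate 3. The authors' normalized table gave 2 that rose and 1 that fell, by the methods' t-test 3 rose and 1 fell, and with median scaling 4 rose and 1 fell. CDKN1A, a common target of KLF4 and KLF6, was at 8619, 14419 and 5552 in HOXA5 cells and 6753, 6645 and 4166 in controls. It was named after its values were seen and did not pass (0.85 ± 0.27, adjusted p = 0.0851). Its other probe, bright on all 6 arrays and with overlapping groups, gave 0.44 ± 0.47 (limma, adjusted p = 0.592).

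**Figure D4:**
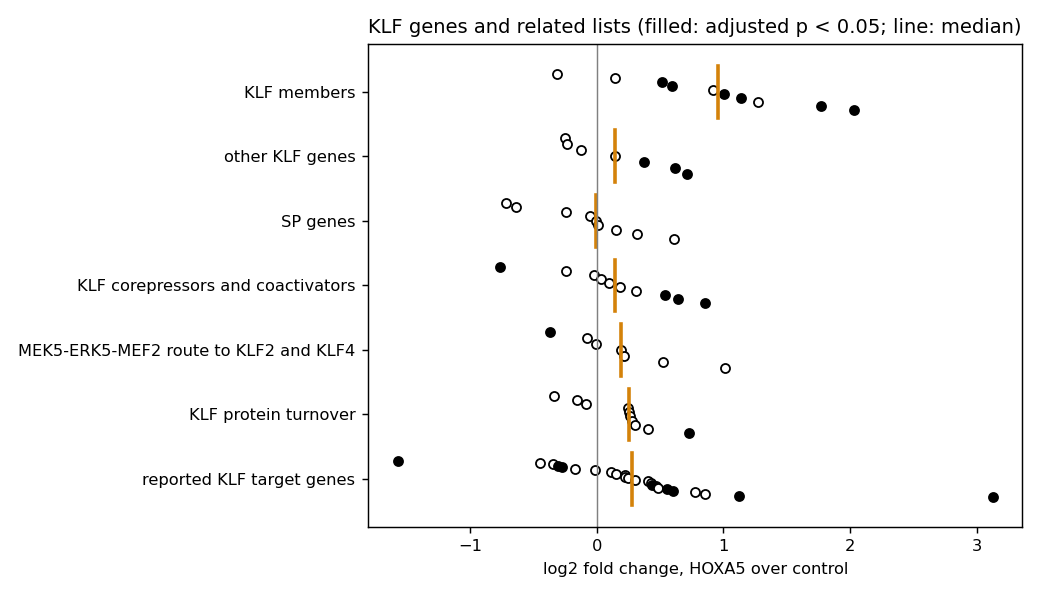
Log2 fold change of HOXA5 over control for the genes of each list, with 1 point per gene, filled points for an adjusted p under 0.05 (limma) and an orange line for the median. The median was 0.96 for the 10 KLF members, 0.15 for the other KLF genes and -0.01 for the SP genes, and the lists were not compared by a test. Members and lists were chosen with earlier results of these data known. All 10 members were bright on all 6 arrays, but 3 of the other KLF genes were dim on all 6.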

How the data were processed

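The authors deposited 2 tables of linear intensity per probe and array: the raw intensity, with a detection p-value and a flag per probe and array, and a table normalized in GeneSpring per the study's methods, whose columns equalled the raw values times 1 constant per array. No source used here gives the background method or what the flags mean. The detection p-value deposited by the authors was not used. The deposited raw intensity ran from -2 to 65516.

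For the tests, log2(raw intensity + 50) was quantile normalized across the 6 arrays. Fold changes are on this scale, which understates changes of dim genes. The 3 HOXA5 and 3 control samples were compared over the 31741 probes by lmFit and eBayes of limma 3.58.1 in R 4.3.3, without covariates. Benjamini-Hochberg adjustment of the two-sided p-values covered every probe, with thresholds of 0.05 and a log2 fold change of 1. Of the probes, 24740 carried 1 symbol (1948 symbols updated), 977 several and 6024 none. Probes with several symbols were left out, and the probe of highest mean stands for a gene. For a gene dim on every array of 1 group, a fold against the bright level is given. The mean of the brighter group is set against the lowest bright value of each array of the dim group, or against the probe's own value where that is higher. Dim arrays of the brighter group keep their own values, so this fold is not a strict lower bound. The steps were tested on simulated data.

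The members and gene lists were chosen with earlier results of these data known, and the lists are described by counts and medians only. From each list, up to 4 genes past the threshold and bright on at least 1 array are named by size of change, or the 2 with the lowest p where none passed, and other names are said to be chosen later. Some genes of the lists are not reported here, and each list's count is of the genes measured. Promoter windows are RefSeq's, matched by symbol. Protein sequences were not analysed here. Alternatives were 3 other scalings, 2 other offsets, a filter on dim probes, trended and robust variances, the methods' t-test, array weights, the replicate numbers as a block, leaving out each sample, and the mean of a gene's probes.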

Additional observations from a re-analysis of the deposited data

How the results depend on the processing

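The count of KLF members that rose was 6, and it was 4 to 8 over the alternatives, lowest with the authors' normalized table and the methods' t-test, and 4 to 7 in the fits without 1 sample. The count that fell was 0 throughout. The signs of all 10 members were the same under all alternatives, except that KLF11 was -0.13 (limma, adjusted p = 0.458) where the probes of a gene were averaged. KLF6 passed in all but the authors' table. KLF13 was lost with median scaling (limma, adjusted p = 0.0839), the authors' table (0.221) and the methods' t-test (0.0608), and KLF7 with the authors' table (0.353), an offset of 100 (0.0508) and that t-test (0.106), beside the samples named with each gene. Over all probes, limma called 6512 at the adjusted p, but 2907 with the authors' table and 4133 by the methods' t-test, and 3531 to 8229 without 1 sample, where 3531, 4034 and 3962 were left without control replicate 1, 2 or 3. The cause was not tested. The share of higher genes among 2-fold calls was 61.6%, against 53.1% with median scaling (653 higher and 576 lower) and 53.2% with the authors' table (573 and 504). Same-numbered samples had correlations of deviations of -0.13, 0.69 and 0.75, and samples of unlike number had -0.80 to 0.50. Whether the numbers pair the samples was not tested further, and the main fit used no block. With the replicate numbers as a block, 7756 probes were called, 8 members rose and 0 fell, KLF4 and KLF5 being the added ones. With 3 arrays per group, the number of arrays limits the precision.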
